A study of Mus musculus with 8 samples.

Results

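Oligodendrocytes and their precursors were followed through 29 genes, taken as rows of the deposited gene table, which held 24498 genes. The genes were chosen from knowledge of the lineage but with earlier results of these data known. Their common direction in the comparisons below is therefore no separate evidence. The 29 comprised 14 genes of myelin membrane and junction proteins, 6 of metabolism and transport, 5 of transcription factors, and 4 of precursors and newly formed cells. All 29 reached a mean of at least 10 normalized read counts over the libraries and were tested among 12681 genes that did so.

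Oligodendrocytes wrap axons of the central nervous system in myelin, a stack of membrane rich in lipid that speeds conduction. Precursors that carry the platelet-derived growth factor receptor divide, leave the cell cycle, pass through a premyelinating state and then switch on the myelin genes under SOX10, OLIG2 and MYRF. The hippocampus holds such cells throughout its layers and in the fibre tracts that border it. Oligodendrocytes also release acetate from N-acetylaspartate, through the enzyme encoded by Aspa, and acetate that becomes acetyl-CoA can feed lipid synthesis. ACSS2, the enzyme targeted in the study, makes acetyl-CoA from acetate.

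Polyadenylated RNA from the dorsal hippocampus was sequenced in 8 libraries. The mice were C57BL/6J males, 10 to 12 weeks of age. Every mouse had an adeno-associated virus injected into the dorsal hippocampus 3 weeks earlier, so no group was free of surgery or virus. The 2 vectors were AAV2/9.U6.shACSS2.CMV.EGFP, which expresses a short hairpin RNA against Acss2 from a U6 promoter, and AAV2/9.CMV.EGFP.polyA, which expresses EGFP alone. Mice called wild type in the labels carried this EGFP control vector. Trained mice explored 3 objects in 3 trials of 6 min and were killed 30 min after training, and untrained mice came from the home cage. Each of the 4 groups (control untrained, control trained, knockdown untrained, knockdown trained) had 2 libraries. The labels name neither the cells that the vectors reached nor the number of mice behind a library, so p-values measure only the spread between these libraries, which may be technical.

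Libraries are named here by the end of their column names. With the control vector, eGFP.254 and eGFP.268 came from untrained and eGFP.250 and eGFP.266 from trained mice. With the knockdown vector, KD.253 and KD.255 came from untrained and KD.249 and KD.251 from trained mice. Reads in genes numbered from 6537749 to 9863728 in 6 libraries, but 1484318 in KD.251 and 272456 in KD.255. Each read counted as 15.6 normalized counts in KD.255 and as 2.88 in KD.251, against at most 0.659 elsewhere, and a count of 0 allowed up to 46.7 in KD.255 (3 reads, a one-sided limit for counting error only). Acss2 itself stood at 58.2, 82.0, 87.4 and 67.5 in the control libraries and at 25.0, 15.6, 25.6 and 57.7 in the knockdown libraries, in the order given above. Its 15.6 in KD.255 was 1 read, and its 57.7 in KD.251 was close to the 58.2 in eGFP.254. Markers of choroid plexus and ependyma varied widely between libraries: Ttr, the thyroid hormone carrier of choroid plexus, ranged from 133 in eGFP.268 to 57479 in eGFP.250.

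Upstream sequence was matched by symbol for 20 of the 29 genes in the RefSeq promoter table (GRCm38.p6), which spans 250 bases before to 50 bases after a transcript start. Both strands were searched for 7 motifs. Genes were counted when any of their promoters held a motif, and the share is of the 27025 genes of the table counted the same way. The SOX core ACAAAG was present for 7 of the 20 genes (Cnp, Gjb1, Mag, Mobp, Opalin, Plekhb1 and Tspan2) and for 21.02% of all genes. Counted by promoter, it was in 9 of the 27 promoters of these genes and in 18.7% of all 32851. The SOX motif AACAAT was present for 4 genes and for 12.2% of all genes, the E-box CAGCTG read by OLIG factors for 3 genes and for 18.3%, and the MYRF motif CTGGCAC for 4 genes and for 5.73%. CTGGTAC, also read by MYRF, was present for 1 gene (Mog) and for 2.60% of all genes, TATAAA for 3 genes and for 15.7%, and the AP-1 motif TGACTCA for 0 of the 20 and for 5.95%. A match describes letters in this window and is neither a binding site nor a cause.

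The next 4 promoters are shown because Mobp and Ermn had some of the highest differences between trained and untrained libraries, Opalin held matches to 3 of the motifs, and Pdgfra differed from the myelin genes in its pattern across libraries. They lie at chr9:120149492-120149791 (plus strand, Mobp), chr2:58052815-58053114 (minus strand, Ermn), chr19:41077064-41077363 (minus strand, Opalin) and chr5:75152001-75152300 (plus strand, Pdgfra). Each is written 5′ to 3′ on the gene's strand, with motif matches in capitals:
Mobp: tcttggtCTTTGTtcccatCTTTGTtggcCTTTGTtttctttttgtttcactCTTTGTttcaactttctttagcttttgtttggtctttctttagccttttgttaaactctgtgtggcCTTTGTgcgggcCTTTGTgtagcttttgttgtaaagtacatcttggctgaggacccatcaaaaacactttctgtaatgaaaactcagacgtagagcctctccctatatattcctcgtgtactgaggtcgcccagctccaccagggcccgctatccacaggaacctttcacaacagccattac
Ermn: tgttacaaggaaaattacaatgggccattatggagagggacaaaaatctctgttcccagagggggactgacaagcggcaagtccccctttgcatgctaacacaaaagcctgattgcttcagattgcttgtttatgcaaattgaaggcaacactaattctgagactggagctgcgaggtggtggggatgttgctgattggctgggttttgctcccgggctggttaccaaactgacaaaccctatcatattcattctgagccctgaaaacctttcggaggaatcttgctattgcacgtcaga
Opalin: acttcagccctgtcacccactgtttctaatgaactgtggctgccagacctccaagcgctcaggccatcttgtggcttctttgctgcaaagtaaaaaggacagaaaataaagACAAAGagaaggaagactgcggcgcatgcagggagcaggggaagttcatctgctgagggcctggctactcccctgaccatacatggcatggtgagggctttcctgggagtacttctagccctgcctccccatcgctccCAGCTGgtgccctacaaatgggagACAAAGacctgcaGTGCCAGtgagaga
Pdgfra: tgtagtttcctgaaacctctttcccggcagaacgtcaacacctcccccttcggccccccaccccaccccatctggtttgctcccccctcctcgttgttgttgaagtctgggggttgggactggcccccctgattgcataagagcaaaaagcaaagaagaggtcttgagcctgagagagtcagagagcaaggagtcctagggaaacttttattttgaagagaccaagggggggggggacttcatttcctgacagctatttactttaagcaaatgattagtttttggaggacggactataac
All 6 capitalised matches in the Mobp promoter were ACAAAG on the opposite strand, starting between 243 and 120 bases before the start. The Opalin promoter had ACAAAG 139 bases before and 23 bases after the start, CAGCTG across the start itself, and CTGGCAC on the opposite strand 36 bases after it. The Ermn and Pdgfra promoters held 0 matches to the 7 motifs. No match overlapped another in these 4 promoters.

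RNA of the 29 genes was read in every library. They took between 0.272% (eGFP.268) and 0.634% (KD.251) of the reads in genes. Per kilobase of annotated exon, Mbp, whose protein holds the cytoplasmic faces of the myelin membrane together, had the highest median level of the 29 at 848 normalized counts. Bcas1, made by newly formed oligodendrocytes, followed at 585 and Mal, a raft-associated proteolipid, at 556. Cspg4, a proteoglycan of precursors that pericytes also make, had the lowest at 3.62, below Aspa at 14.7 and Nkx6-2 at 17.9. For Mbp the level per kilobase ranged from 554 to 1278 over the libraries and for Bcas1 from 267 to 906, so these neighbours overlapped.

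One untrained control library, eGFP.268, stood apart. It had the lowest value of the 8 libraries for 23 of the 29 genes, or 79.3%, against 8.85% of all tested genes. This held for 13 of 14 myelin membrane genes, 4 of 6 genes of metabolism, 4 of 5 transcription factors, and 2 of the 4 genes of precursors and newly formed cells (Gpr17 and Bcas1). Within the untrained control group, 26 of the 29 genes were higher in eGFP.254 than in eGFP.268, with a median ratio between the 2 libraries of 1.50 against 1.24 for all genes. In this group 14 of the 29 differed by more than 1.5-fold, against 21.65% of all genes. The median deviation of the 29 genes from the mean of the 4 control libraries was -0.58 (log2 scale) in eGFP.268 and between -0.04 and 0.49 in the other 7 libraries. This library entered every value for untrained control mice. Counts of the 29 genes above 0 and their medians are therefore given with and without it wherever that group was used. Values without it are given for only some single genes, and not for counts by unadjusted p or of groups without overlap. In this bulk tissue, fewer oligodendrocytes and less myelin RNA per cell cannot be told apart.

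**Figure D1:**
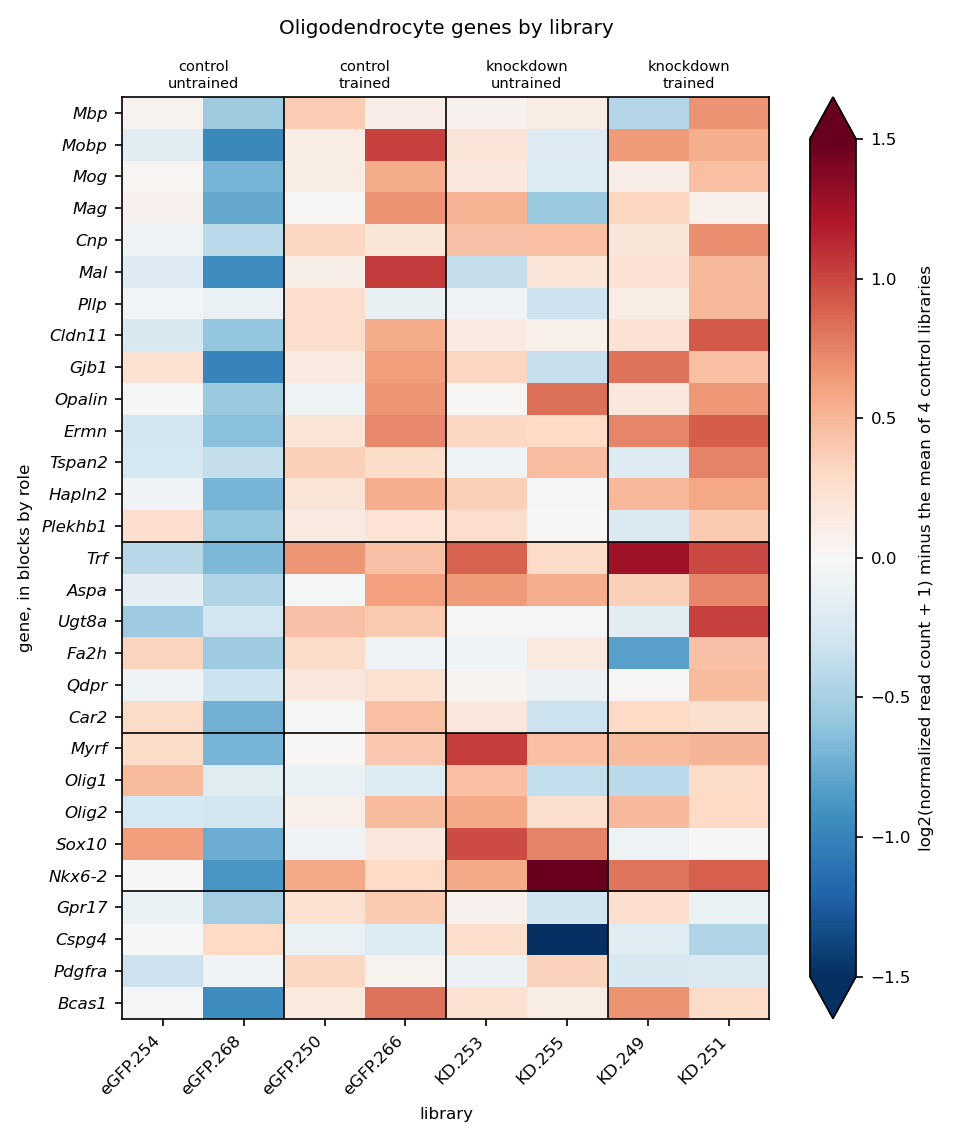
Log2(normalized read count + 1) of the 29 genes (rows, in 4 blocks by role) in the 8 libraries (columns, in 4 groups), each minus the mean of the 4 control libraries of that gene. The column of eGFP.268 is the lowest of the 8 for 23 of the 29 genes, and colours saturate beyond 1.5 in either direction, as for Cspg4 (0 reads) and Nkx6-2 (5 reads) in the shallow library KD.255.

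The membrane genes shared this library pattern. In the order of libraries given above, Mbp read 7021 and 4689 in untrained control mice, 8863 and 7275 in trained control mice, 7086 and 7309.7 in untrained knockdown mice, and 5018 and 10820.4 in trained knockdown mice. Mobp, a basic protein of the compact myelin of the central nervous system, read 1294 and 736, 1553 and 2930, 1655 and 1259.8, and 2247 and 2109. Mal read 1218 and 727, 1489.7 and 2882, 1089 and 1602, and 1622 and 1964. Trained control libraries were above untrained control libraries for all 3 genes, while the 2 trained knockdown libraries differed from each other 2.16-fold for Mbp.

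Ermn, a cytoskeletal protein of the myelin sheath, read 437 and 345, 609 and 879, 661 and 653, and 889.5 and 1004. Its untrained control values were the lowest, below all 6 other libraries. Mog, a glycoprotein of the outermost myelin layer, read 165 and 99.8, 175 and 239, 181 and 140.0, and 174 and 222. Mag, the adhesion molecule of the layer that faces the axon, read 288 and 162, 279 and 442, 394 and 187, and 343 and 291. For both glycoproteins the untrained knockdown values overlapped those of untrained control mice. Cnp, an enzyme that keeps cytoplasmic channels in myelin open, read 269 and 213, 351 and 321, 384 and 389, and 320.4 and 462, and Gjb1, a gap junction protein, read 47.1 and 19.5, 44.0 and 62.2, 50.1 and 31.1, and 71.1 and 54.8. Cnp was lower in the untrained control libraries than in the other 3 groups, and Gjb1 rested on 2 reads in KD.255. The remaining 6 membrane genes (Pllp, Cldn11, Opalin, Tspan2, Hapln2 and Plekhb1) varied over the libraries by 1.76-fold (Pllp) to 2.83-fold (Cldn11).

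The genes of metabolism and transport are led by Trf, the iron carrier transferrin. It read 484 and 406 in untrained control mice, 1022 and 877 in trained control mice, 1198 and 793 in untrained knockdown mice, and 1569 and 1287 in trained knockdown mice. The value in KD.255 was 51 reads, with an exact 95% Poisson interval of 591 to 1043 for counting error. Both untrained control libraries lay below all others, and both trained knockdown libraries above all others. Aspa read 57.6 and 46.1, 63.1 and 97.6, 99.5 and 93.3, and 81.9 and 107, and was lowest in the untrained control group. Its 93.3 in KD.255 was 6 reads (95% Poisson interval 34.2 to 203). Car2, a carbonic anhydrase, read 980.0 and 485, 791 and 1093, 898 and 638, and 987 and 949, with overlap between the vectors in each training state. Ugt8a and Fa2h, which make the galactolipids and hydroxylated fatty acids of myelin, were higher in KD.251 (288 and 115) than in KD.249 (125 and 47.6). Qdpr, which regenerates a pterin cofactor, varied by 1.74-fold over all libraries.

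Among the transcription factors, Myrf, which switches on the myelin genes, read 458 and 231, 381 and 499, 772 and 513, and 525 and 537. Sox10, needed at every stage of the lineage, read 444 and 171, 277 and 319, 565 and 482, and 272 and 286. Sox10 was highest in untrained knockdown mice and did not exceed 319 in any trained library. Olig1 read 168 and 106, 113 and 104, 165 and 93.3, and 90.6 and 147, with no order of groups, where 93.3 was 6 reads (95% interval 34.2 to 203). Olig2, which specifies the lineage, read 87.2 and 86.9, 111 and 146, 157 and 124, and 148 and 130, and was lowest in the untrained control group. Its 124 in KD.255 was 8 reads (95% interval 53.7 to 245). Nkx6-2, a homeodomain protein of maturing oligodendrocytes, read 22.7 and 12.0, 34.1 and 28.2, 34.3 and 77.8, and 40.4 and 43.3, where 77.8 was 5 reads (95% interval 25.2 to 181).

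Genes of precursors and newly formed cells split. Pdgfra, the growth factor receptor of precursors that fibroblasts also express, read 218 and 259, 333 and 279, 253.7 and 342, and 228 and 231, so eGFP.268 was not low. Cspg4 read 47.7 and 58.5, 44.5 and 41.1, 57.3 and 0, and 42.0 and 34.6, and eGFP.268 had its highest value. The value of 0 in KD.255 allowed up to 46.7 normalized counts by the limit of 3 reads and up to 57.4 by the exact two-sided 95% Poisson interval. Gpr17, a receptor of premyelinating cells, read 213 and 159, 269 and 300.4, 239 and 187, and 274 and 213. Bcas1 read 1908 and 1009, 2148 and 3419, 2267 and 2099.6, and 3091 and 2368. Gpr17 and Bcas1 were both lowest in eGFP.268 and highest in eGFP.266, the library in which 7 of the 29 genes peaked, against 12 in the shallow library KD.251. Among the 6 deeper libraries, eGFP.266 had the highest value for 11 of the 29. The share of all genes that peaked in each library was not counted.

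**Figure D2:**
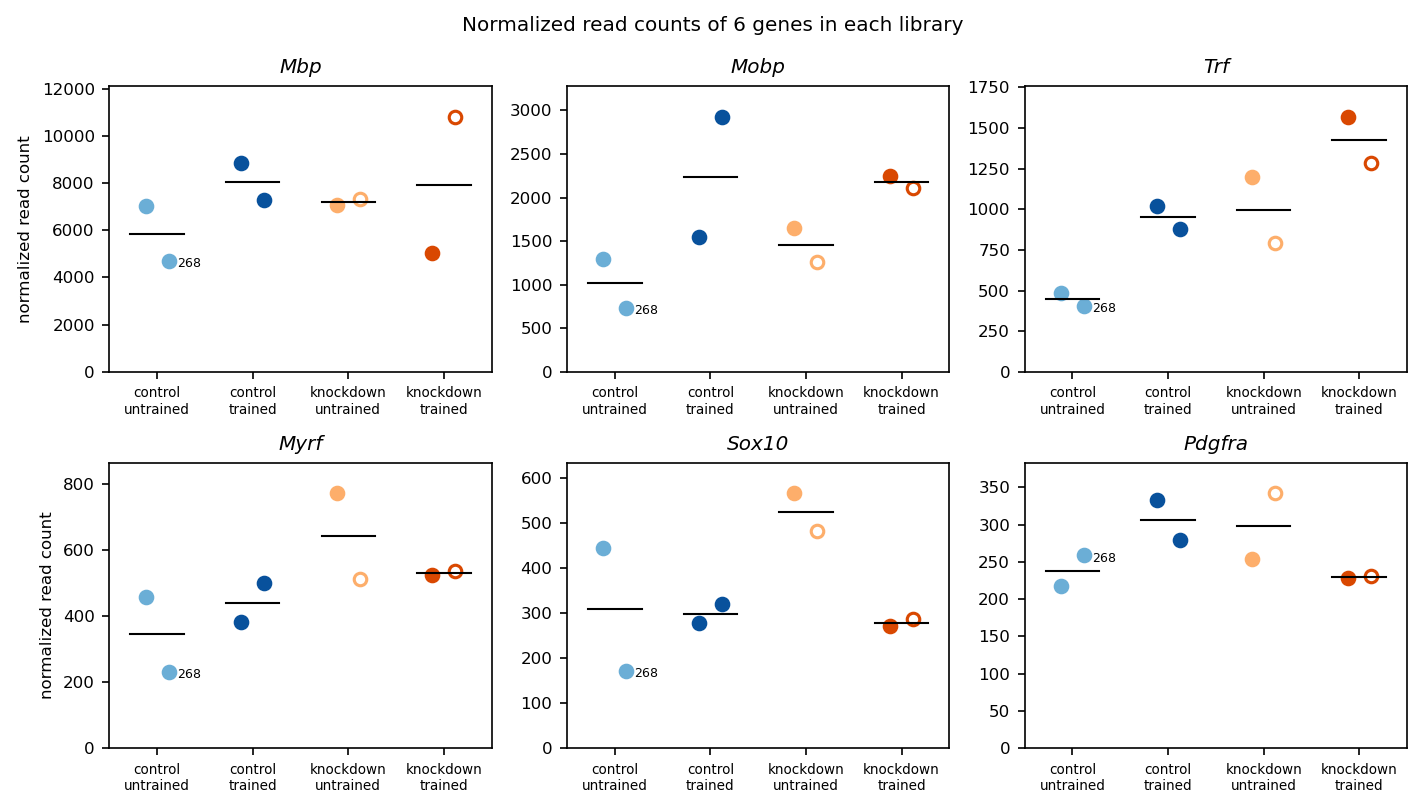
Normalized read counts (vertical axes, from 0) of 6 genes in the 4 groups, with 1 point per library, a bar at the group mean of 2 libraries, and open points for the shallow libraries KD.255 and KD.251. Trf is lowest in the 2 untrained control libraries, Sox10 is highest in untrained knockdown mice, and the labelled point is the library eGFP.268.

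The first comparison asked what training did in mice with the control vector. Of the 29 genes, 27 were higher after training, with a median log2 difference of 0.60 against 0.01 for all tested genes, of which 52.1% were above 0. No member passed an adjusted p of 0.05 by limma (0% of all genes), by edgeR or by DESeq2 (0.0315% of all genes), and 9 of the 29 had an unadjusted limma p under 0.05, against 1.43% of all genes. By edgeR without the filter on low values 3 members passed (Mal, Mobp and Trf), in a fit that called 0.596% of all genes. In 18 genes both trained libraries lay above both untrained ones, against 14.5% of all genes. The reverse held for Cspg4 alone, against 14.3%.

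The largest of these differences were in Mal (1.14, SE 0.36), Mobp (1.13, SE 0.35) and Trf (1.09, SE 0.24), each with a limma adjusted p of 1.00. Bcas1 differed by 0.97 (SE 0.33), Ermn by 0.91 (SE 0.23) and Cldn11, a tight junction protein of myelin, by 0.82 (SE 0.28). Mbp differed by 0.48 (SE 0.35), close to its own spread. All 14 membrane genes and all 6 genes of metabolism were above 0, as were 4 of 5 transcription factors, with Olig1 at -0.30 (SE 0.37). Without eGFP.268, 22 of the 29 genes remained above 0 and the median was 0.32. The transcription factors then had a median of -0.07, with Sox10 at -0.58 and Olig1 at -0.63, while Trf kept 0.97 and Mobp 0.72. Since only eGFP.254 then stood for untrained control mice, its spread was assumed to equal that of the other groups.

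Training was also compared in mice with the knockdown vector. There, 18 of the 29 genes were higher in trained mice, with a median of 0.22 against 0.04 for all genes, of which 54.1% were above 0. Again 0 members passed by limma (0% of all genes), edgeR or DESeq2, and 1 had an unadjusted limma p under 0.05 (4.48% of all genes). Groups did not overlap for 10 genes that were higher (16.4% of all genes) and for 2 that were lower, Sox10 and Pdgfra (14% of all genes). All 5 transcription factors were below 0, with a median of -0.25. Sox10 differed by -0.90 (SE 0.38, limma adjusted p = 0.802), Trf by 0.54 (SE 0.24), Ermn by 0.52 (SE 0.23) and Gjb1 by 0.65 (SE 0.48). The value for Cspg4, 2.36 (SE 1.44), rested on the 0 reads in KD.255 and was -0.58 without that library. Without both shallow libraries the median was -0.06 and 13 of 29 genes were above 0, with 1 library left in each arm.

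**Figure D3:**
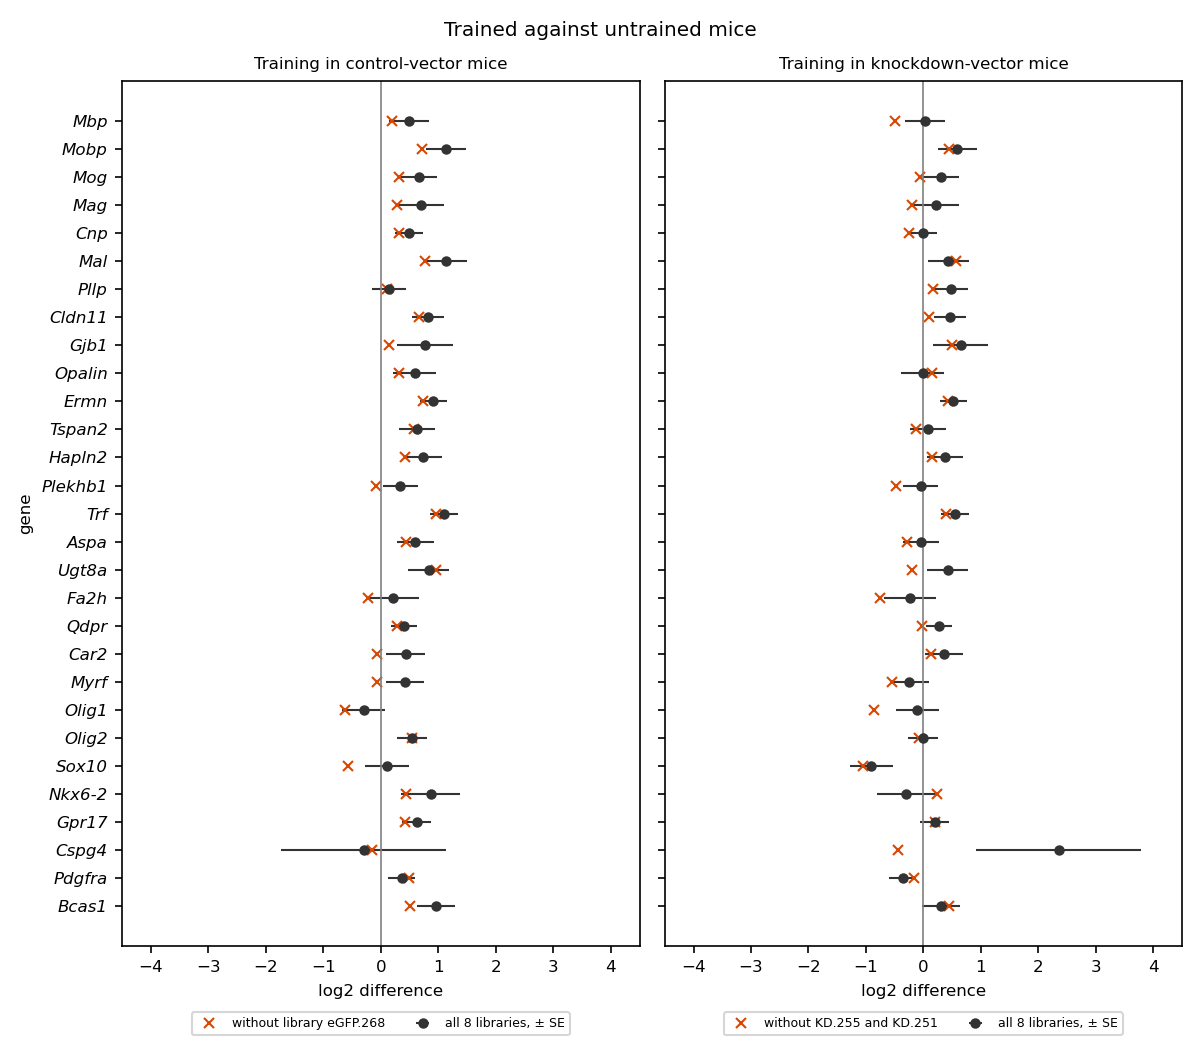
Log2 differences between trained and untrained mice (horizontal axes) for the 29 genes, in control-vector mice on the left and knockdown-vector mice on the right, as dots with bars of 1 SE from limma on all 8 libraries. Crosses omit eGFP.268 on the left, which lowers most membrane genes, and both shallow libraries on the right, where Sox10 stays the lowest of the 29 genes.

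Averaged over both vectors, 26 of the 29 genes were higher in trained mice, with a median of 0.35 against 0.03 for all genes (55.1% above 0). No member passed by limma or edgeR (0% of all genes) or by DESeq2 (0.073% of all genes), while 11 had an unadjusted limma p under 0.05, against 4.86% of all genes. Mobp differed by 0.86 (SE 0.25), Trf by 0.82 (SE 0.18), Mal by 0.79 (SE 0.27) and Ermn by 0.72 (SE 0.16), all with a limma adjusted p of 0.873. Only Cldn11 had all 4 trained libraries above all 4 untrained ones, against 1.65% of all genes, and 0 members had the opposite order, against 1.62%. By edgeR without the filter on low values 4 members passed (Ermn, Mal, Mobp and Trf), in a fit that called 0.413% of all genes. Without eGFP.268, 22 of the 29 genes were higher and the median was 0.27. This average shares its libraries with the comparisons within each vector and is no separate evidence.

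The second comparison asked what the knockdown vector did in untrained mice. Of the 29 genes, 26 were higher with the knockdown vector, with a median of 0.49 against -0.05 for all genes, of which 44.8% were above 0. These differences used the same untrained control libraries as the training comparison, and without eGFP.268 the count was 19 and the median 0.19. By limma 0 members passed (0% of all genes) and 8 had an unadjusted p under 0.05 (4.5% of all genes). By edgeR 0 passed (0.181% of all genes), and by DESeq2 1 passed, Trf (0.434% of all genes). By edgeR without the filter on low values 2 passed, Trf and Myrf (1.22% of all genes). Both knockdown libraries lay above both controls for 15 genes (14.4% of all genes), and below them for 0 (16.8% of all genes).

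Transcription factors had the highest median of the 4 roles in untrained mice, 0.92, and 0.46 without eGFP.268. Nkx6-2 differed by 1.59 (SE 0.51, limma adjusted p = 0.816), Myrf by 0.95 (SE 0.33), Sox10 by 0.92 (SE 0.38) and Olig2 by 0.68 (SE 0.26), with Olig1 at -0.11 (SE 0.37). Without eGFP.268, Sox10 was at 0.23 and Myrf at 0.46, whereas Olig2 stayed at 0.67. Without KD.253, Nkx6-2 passed by limma (2.17, adjusted p = 0.0168), on the 5 reads of KD.255 alone, in a fit that called 10.2% of all genes. Among the enzymes and membrane proteins, Aspa differed by 0.89 (SE 0.32), Ermn by 0.76 (SE 0.23) and Cnp by 0.69 (SE 0.24). Trf differed by 1.13 (SE 0.24), with an adjusted p of 0.467 by limma, 0.0865 by edgeR and 0.00311 by DESeq2, and both knockdown libraries were above both controls. Cspg4 was at -2.82 (SE 1.44) on the 0 reads in KD.255 and at 0.12 without that library.

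The same comparison was made in trained mice. With the knockdown vector 17 of the 29 genes were higher, with a median of 0.05, and 49.3% of all genes were above 0. The values were 12 genes and a median of -0.05 without KD.251. No member passed by limma (0.00789% of all genes), edgeR (0.0315%) or DESeq2 (0.26%), and 1 had an unadjusted limma p under 0.05 (2.36% of all genes). Trf differed by 0.59 (SE 0.24, limma adjusted p = 1.00), Nkx6-2 by 0.42 (SE 0.51), Ermn by 0.37 (SE 0.23) and Myrf by 0.28 (SE 0.34), and these were the 4 genes whose knockdown libraries both exceeded both control libraries, against 14.4% of all genes. Pdgfra, at -0.41 (SE 0.23), was the 1 gene with the opposite order, against 14.8% of all genes. Mbp stood at -0.12 (SE 0.35), and at -0.68 without KD.251.

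**Figure D4:**
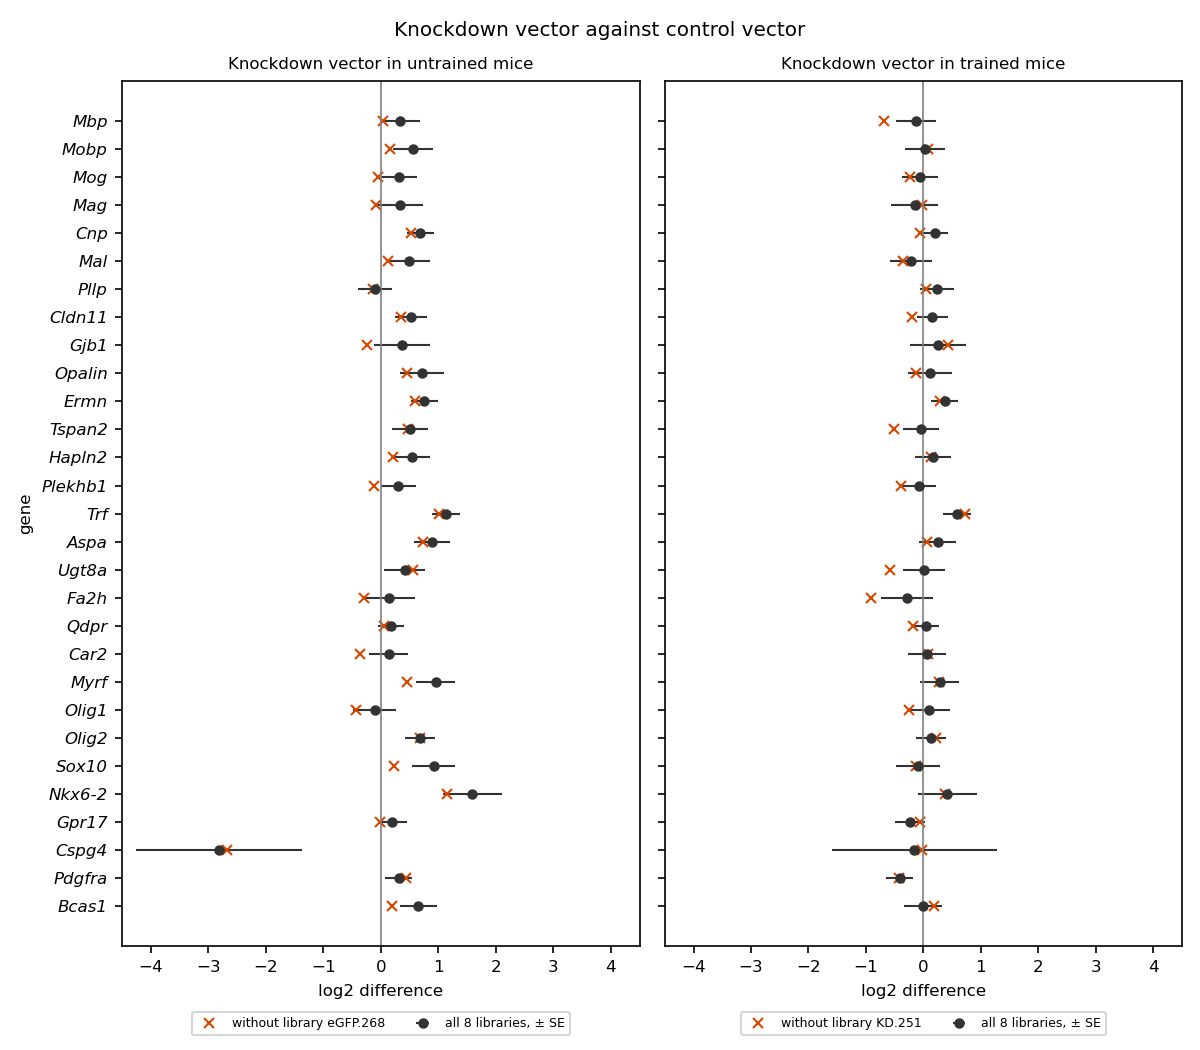
Log2 differences between the knockdown and the control vector (horizontal axes) for the 29 genes, in untrained mice on the left and trained mice on the right, as dots with bars of 1 SE from limma on all 8 libraries. Crosses omit eGFP.268 on the left, where 19 of 29 genes then remain above 0, and KD.251 on the right; the long bar of Cspg4 on the left rests on 0 reads in KD.255.

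Averaged over training, Trf was the 1 member of the 29 to pass, by edgeR and DESeq2 but not by limma. Its mean was 697 ± 299 (SD, n = 4) with the control vector and 1212 ± 321 (SD, n = 4) with the knockdown vector, and the 4 libraries of one vector overlapped those of the other. It rose by 0.90 in edgeR (adjusted p = 0.0365, with 0.962% of all genes called) and by 0.89 in DESeq2 (adjusted p = 8.4e-04, with 1.54% called). By limma the difference was 0.86 (SE 0.18) and did not pass (adjusted p = 0.215, with 0.103% called). Leaving out both shallow libraries, it was 1.08 and passed by limma (adjusted p = 0.0279, with 1.67% called).

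The edgeR call for Trf was tested by leaving out each library, an alternative chosen after the data had been seen. It held without eGFP.250 (adjusted p = 0.025) and without KD.251 (0.0128). It was lost by adjusted p without eGFP.254 (0.147), eGFP.268 (0.157), eGFP.266 (0.0661), KD.253 (0.306), KD.255 (0.0843) or KD.249 (0.150). It was also lost with a term for the higher-numbered set of eGFP.266 and eGFP.268 (0.203, with 0.891% called). Both libraries of that set carried the control vector, so with the term the averaged vector difference rested on eGFP.254 and eGFP.250 as controls. The log2 difference was 0.67 to 0.94 where leaving out a library lost the call and 0.79 with the set as a term, against 0.90 with all 8 libraries. For the edgeR fits with a library left out, the share of all genes called was not counted. Without the filter on low values the adjusted p was 1.99e-04, in a fit that called 2.98% of all genes. Choroid plexus also makes transferrin, and the summed choroid plexus and ependyma markers ran from 748 in eGFP.268 to 71847 in eGFP.250, against 1459 to 3617 in the knockdown libraries. Trf stood at 1022 in eGFP.250 and 877 in eGFP.266, where that sum was 2086. It stood at 484 in eGFP.254, with a sum of 18725, and at 1569 in KD.249, with a sum of 1576. The part of choroid plexus and ependyma in the Trf values was not tested. Trf (chr9:103204001-103230444, minus strand, GRCm38) shares 2108 exonic bases with the read-through gene Gm20425, which had no row of its own.

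The other members did not pass. Across both training states 24 of 29 were higher with the knockdown vector, with a median of 0.24 against -0.03 for all genes (44.3% above 0), and 18 and a median of 0.08 without eGFP.268. By limma 0 members passed and 6 had an unadjusted p under 0.05, against 5.59% of all genes. Nkx6-2 differed by 1.00 (SE 0.39), Myrf by 0.62 (SE 0.25), Aspa by 0.57 (SE 0.23), Ermn by 0.56 (SE 0.16) and Cnp by 0.44 (SE 0.17), with limma adjusted p-values from 0.529 (Ermn) to 0.855 (Aspa). All 4 knockdown libraries exceeded all 4 control libraries for Myrf and Nkx6-2, or 2 of 29, against 2.28% of all genes, and 0 members had the opposite order, against 1.98%. Both margins were narrow. For Nkx6-2 it was 34.3 in KD.253 against 34.1 in eGFP.250. For Myrf it was 513 in KD.255 against 499 in eGFP.266, and the 95% Poisson interval of 513 (353 to 721) included 499.

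The third comparison was the interaction, the training difference with the knockdown vector minus that with the control vector. It was above 0 for 3 of the 29 genes (Pllp, Olig1 and Cspg4), with a median of -0.45 against 0.03 for all genes, of which 52.9% were above 0. It passed for 0 members by limma (0% of all genes), edgeR and DESeq2, and 0 members had an unadjusted limma p under 0.05 (0.883% of all genes), so no training response was shown to differ between the vectors. Nkx6-2 was at -1.17 (SE 0.73), Sox10 at -1.01 (SE 0.54) and Pdgfra at -0.72 (SE 0.33). Without eGFP.268, 7 genes were above 0 and the median was -0.19, with Sox10 at -0.33. Cspg4, at 2.66 (SE 2.03), again rested on KD.255 and was -0.28 without it.

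Further genes of the lineage were read from lists outside the 29. Of 36 further genes of myelin and mature oligodendrocytes 34 were tested, and 33 of them were higher in trained control mice, with a median of 0.66, and 27 with a median of 0.29 without eGFP.268. None passed by limma or edgeR in any of the 7 comparisons. By DESeq2, Apod passed for the knockdown vector in untrained mice (1.16, adjusted p = 0.0142, with 0.434% of all genes called). Averaged over training, Apod (0.83, adjusted p = 0.00896) and Klk6 (2.40, adjusted p = 0.0313) passed for the knockdown vector, with 1.54% called. Klk6 had only 6, 2, 9 and 18 reads in the control libraries and 43, 0, 51 and 5 in the knockdown libraries. The largest training differences with the control vector in this list were in Enpp2 (1.70, SE 1.00) and Klk6 (1.34, SE 1.64), at 0.38 and 0.72 without eGFP.268. Enpp2, which makes lysophosphatidic acid, is also a choroid plexus gene and read 11909.7 in eGFP.250. With the knockdown vector averaged over training, 24 of the 34 were higher, with a median of 0.24, and 18 with a median of 0.046 without eGFP.268. The largest of those differences were in Klk6, a protease (1.18, SE 1.08), Efhd1 (-1.04, SE 0.96) and Gal3st1 (-0.96, SE 0.93), and all 3 genes had 0 reads in KD.255. By edgeR the difference was 2.43 for Klk6 and 0.13 for both Efhd1 and Gal3st1, so the direction of the latter 2 depended on the test.

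The precursor list as a whole did not share the low values of eGFP.268. Of its 20 genes 18 were tested, and eGFP.268 was lowest for 0 of the 18, against 19 of 34 in the mature list and 4 of 14 tested genes of newly formed cells. The share of all tested genes was 8.85%. For Neu4 and Matn4 only KD.255 was lower, on 1 and 0 reads, than eGFP.268 (23.5 and 10.6). In trained control mice 10 of the 18 were above 0, with a median of 0.02, and 8 with a median of -0.04 without eGFP.268. The largest differences there were in Pcdh15 (0.62, SE 0.40), Lhfpl3 (0.60, SE 0.34) and C1ql1 (-0.56, SE 0.49). For newly formed cells 8 of 14 were above 0, with a median of 0.20, and Cnksr3 (0.90, SE 1.22), Enpp6 (0.75, SE 0.39) and Kcnk13 (0.67, SE 0.58) differed most. Without eGFP.268, 8 of 14 were again above 0, with a median of 0.18, and these 3 genes stood at 0.38, 0.45 and 0.17. With the knockdown vector averaged over training, 9 of 18 precursor genes and 8 of 14 genes of newly formed cells were higher, with medians of -0.02 and 0.09, which were -0.10 and 0.0046 without eGFP.268.

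Regulators of the lineage showed no common direction. In trained control mice 9 of 18 tested regulators were above 0, with a median of 0.10, and 12 with a median of 0.25 without eGFP.268. Erbb3, a neuregulin receptor, differed by 1.22 (SE 0.45), Id2, an inhibitor of differentiation, by -0.66 (SE 0.34), and Sox8, a relative of Sox10, by 0.63 (SE 0.27), the last falling to 0.33 without eGFP.268. Of 15 genes of sphingolipid and galactolipid metabolism 14 were above 0, with a median of 0.15, led by Elovl7 (0.82, SE 0.49) and Cers2, a ceramide synthase of very long chains (0.54, SE 0.25). Without eGFP.268 it was 12 of 15 with a median of 0.24, and Elovl7 stood at 0.23 and Cers2 at 0.28. In the list from acetylaspartate and acetate to acetyl-CoA, which contains Acss2, 4 of 7 genes were above 0 with training in control mice (median 0.08) and 0 of 7 with the knockdown vector averaged over training. Without eGFP.268 these were 3 of 7 (median -0.04) and 0 of 7. Besides Acss2 (-1.37, SE 0.33), the largest of the latter were in Slc25a1, the mitochondrial citrate carrier (-0.48, SE 0.24), and Acaca, which makes malonyl-CoA (-0.35, SE 0.22). None passed by limma or edgeR, and Acss2 passed by DESeq2 (-1.27, adjusted p = 0.0144, with 1.54% of all genes called).

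**Figure D5:**
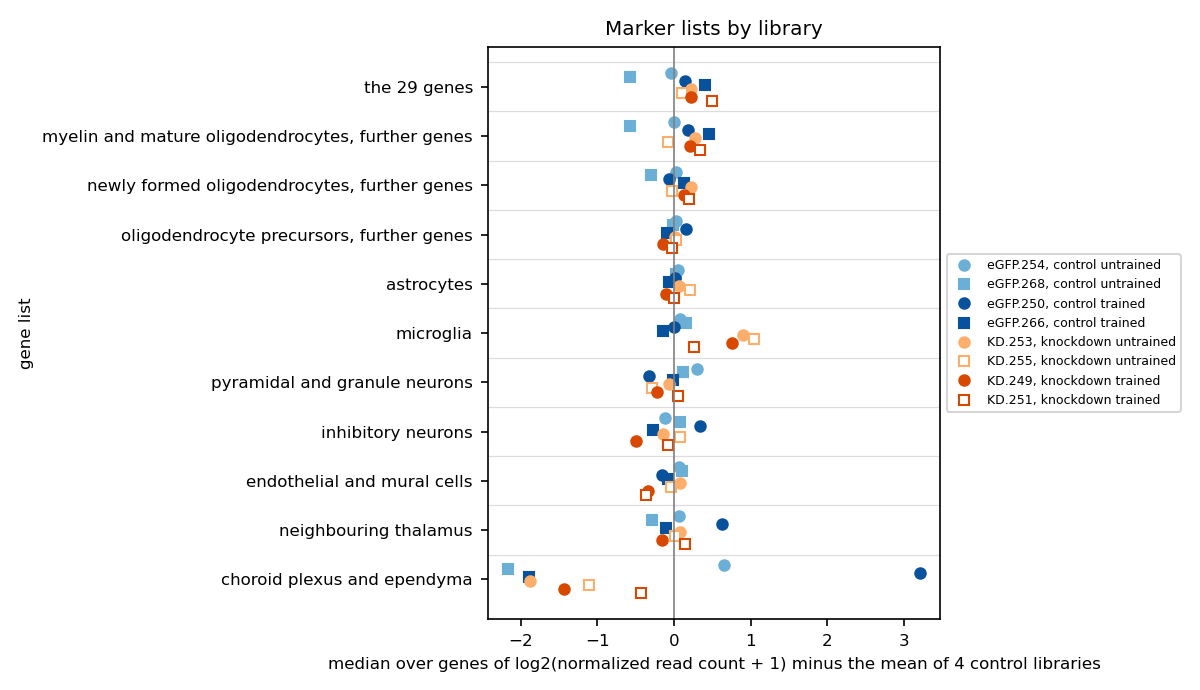
Median over the genes of a list of log2(normalized read count + 1) minus the mean of the 4 control libraries (horizontal axis), for the 29 genes and 10 marker lists (rows), with 1 symbol per library and open symbols for the shallow libraries. The library eGFP.268 (pale blue square) is at -0.58 for the 29 genes and at -0.01 for precursors, while microglial markers are between 0.26 and 1.04 in the 4 knockdown libraries.

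Markers of other cells were read beside these results. The library eGFP.268 was lowest for 0 tested markers of astrocytes, microglia, pyramidal and granule neurons, inhibitory neurons, and endothelial and mural cells, for 6 of 11 choroid plexus and ependymal markers, and for 2 of 9 thalamic markers. Its median deviation for choroid plexus and ependyma was -2.17, against 3.21 in the trained control library eGFP.250 and 0.65 in eGFP.254. Pyramidal and granule neuron markers were lower in 17 of 18 genes in trained than in untrained control mice, with a median of -0.35. Without eGFP.268 the median was -0.46, and 4 of the 18 genes were higher. The summed level of these neuron markers ran from 68128 to 71879 in untrained control, from 56860.4 to 59424 in trained control, from 56155 to 58975 in untrained knockdown and from 51913 to 64689 in trained knockdown libraries. In the same comparison all 11 tested choroid plexus and ependymal markers were higher (median 1.33), but 4 of 11 without eGFP.268 (median -0.12). All 9 tested thalamic markers were higher (median 0.20), and 6 of 9 without it (median 0.04). Of 14 endothelial and mural markers 12 were lower (median -0.23), and without eGFP.268 the median was -0.19 with 4 of 14 higher. All 15 microglial markers were higher with the knockdown vector averaged over training (median 0.72), with summed levels of 2218 to 3624 against 1560.0 to 1836 in control libraries. The part of these shifts in the values of the 29 genes was not tested. Markers of Schwann cells, which make peripheral myelin, were near 0: Prx reached at most 4.65 normalized counts and Foxd3 had 0 reads in every library.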

How the data were processed

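RNA of 8 hippocampal libraries, 2 in each of 4 groups, was sequenced from ScriptSeq v2 libraries on a NextSeq 500, per the labels' protocols. The submitters' processing notes name bcl2fastq 02.14.01.07, STAR 2.3.0 (aligner), HTSeq 0.6.1 (read counter), DESeq, bedtools and the build mm10. Which annotation was counted, and whether by strand, is not given in the sources used here. For this series, the authors deposited 1 table with a normalized signal for each gene in each library. In 100% of values, to a relative tolerance of 1e-06, they were whole multiples of the library's smallest value, so whole reads were recovered, and the signal was read as reads divided by 1 size factor per library and called a normalized read count. Of 24503 entries, 5 were summary entries of the counter, and these were used neither for depth nor in a test. Per library, 16.4% to 20.3% of reads fell in no gene, 10.6% to 13.8% did not align uniquely, 2.76% to 7.86% did not align, 0.379% to 0.424% were ambiguous, and 0% had too low an alignment quality.

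Columns were matched to groups by their names, which show the vector, the training state and a number but not the replicate of the labels. Replicate libraries differed beyond sampling noise (chi-square per degree of freedom from 2.08 to 34.0) and each counted as 1 sample. Intervals and floors cover counting error only, since reads carried no molecular identifiers.

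In R 4.3.3, limma 3.58.1 (trend by mean level) was fitted to log2(value + 1) of the 12681 genes whose mean was 10 or more, as the main test. The spread was estimated once over all 4 groups, on 4 residual degrees of freedom plus 5.13 from the prior. Of the 7 comparisons, the 2 averages came from an additive model. P-values were adjusted over all tested genes by Benjamini-Hochberg, and under 0.05 a gene passed. Fold changes on this scale understate the change of low genes, and a count of 0 in KD.255 can overstate a drop. edgeR 4.0.16 (quasi-likelihood) and DESeq2 1.42.0 ran on the recovered reads with the same genes. An exact test within a training state could not go below p = 0.333, and 4 against 4 libraries not below 0.0286. The scripts were tested on simulated data with changes larger than nearly all differences of the 29 genes, so that test does not show the power to detect these. The 29 genes and the marker lists were chosen with earlier results of these data known, so no list is separate evidence of its direction. All 29 genes are accounted for, and those given library by library are 17 fixed genes, members that passed limma or edgeR, and the 3 with the largest absolute difference in each comparison. Of further lists, the 3 genes with the largest difference are named in the comparisons reported for that list, except where a gene is not reported here. Other settings were 2 pseudocounts (5 and 16), no filter or a mean of at least 30, TMM scaling, each library or both shallow libraries left out, and the numbered set of eGFP.266 and eGFP.268 as a term. Gene positions and exons came from GENCODE (GRCm38), and promoters from RefSeq (GRCm38.p6).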

Additional observations from a re-analysis of the deposited data

Results flagged for a closer look

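Pdgfra, the growth factor receptor of oligodendrocyte precursors (chr5:75152292-75198215, plus strand, GRCm38), was singled out because its libraries moved in opposite directions with training in the 2 vectors. Both trained control libraries (333 and 279) lay above both untrained control libraries (218 and 259), and both trained knockdown libraries (228 and 231) lay below both untrained knockdown libraries (253.7 and 342, the last on 22 reads). Over all tested genes, 14.5% had the first order with the control vector and 14% the second with the knockdown vector. The share of genes with both orders was not counted, so the pattern is not read as a result about Pdgfra. The log2 difference of the 2 training responses was -0.722 (SE 0.33), with a limma unadjusted p of 0.056 and an adjusted p of 1.00, so it did not pass, and it stayed negative, at -0.51, without KD.255. Exons of Pdgfra overlap 456 bases of the antisense gene Gm42802, and the strand setting of the counting is not given in the sources used here. Groups of 2 libraries were too small to look for single outlying libraries by a gap test.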

How the results depend on the processing

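With 2 libraries a group, 0 of 29 genes passed limma with all 8 libraries in any of the 7 comparisons. Of 45 gene and comparison pairs under 27 other settings, 1143 of 1215 values kept their direction and side of the threshold, 22 gained a call and 50 reversed, and none could lose a call. The reversals were in 7 pairs, none of which passed in the setting that reversed. Sox10 (training, control vector) was at -0.034 by edgeR, -0.0726 without its filter, -0.046 by DESeq2, and -0.58 to 0.79 (edgeR -0.59 to 0.80) with each library left out. Olig1 with each library left out was at -0.63 to 0.026 (edgeR -0.65 to 0.026) for training with the control vector. In untrained mice with the knockdown vector, Olig1 was at 0.11 by edgeR, 0.087 without its filter, 0.075 by DESeq2, 0.30 without both shallow libraries, and -0.52 to 0.30 (edgeR -0.56 to 0.46) with each library left out. Mbp (knockdown, trained) ranged from -0.68 to 0.43 (edgeR -0.68 to 0.44). Cspg4 (training, knockdown vector) was at -0.26 by edgeR, -0.28 without its filter, -0.27 with the library set as a term, -0.14 by DESeq2, -0.44 without both shallow libraries, and -0.58 to 5.29 (edgeR -0.56 to 8.86). Cspg4 without both shallow libraries was at 0.12 (knockdown, untrained) and -0.14 (interaction), and with each library left out at -5.75 to 0.12 (edgeR -9.31 to 0.12) and -0.28 to 5.59 (edgeR -0.24 to 9.18). Without a filter on low values, edgeR passed 3 genes for training with the control vector (Mal, Mobp and Trf, with 0.596% of all genes called). It passed 2 for the knockdown vector in untrained mice (Trf and Myrf, 1.22% called). It also passed 4 for training averaged over vectors (Ermn, Mal, Mobp and Trf, 0.413% called) and 1 for the averaged knockdown vector (Trf, 2.98% called). DESeq2 passed 1 (Trf) in untrained mice (0.434% called) and 1 (Trf) in the averaged knockdown comparison (1.54% called). In the latter, edgeR (0.962% called) and the fit without both shallow libraries (1.67% called) each passed 1 (Trf). Without both shallow libraries the median of the 29 genes was -0.058 for training with the knockdown vector and -0.054 for the knockdown vector in trained mice, and with the numbered library set as a term the latter was -0.0047. That set held control libraries only, so set and vector were partly confounded. The cause was not tested.

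Leaving out each library gave medians by limma of 0.32 to 0.83 (training, control vector), 0.087 to 0.40 (training, knockdown vector), 0.19 to 0.73 (knockdown, untrained), -0.061 to 0.27 (knockdown, trained), -0.69 to -0.19 (interaction), 0.27 to 0.44 (training averaged) and 0.076 to 0.40 (knockdown averaged). By edgeR, chosen after the data had been seen, they were 0.36 to 0.84, -0.0062 to 0.33, 0.19 to 0.77, -0.060 to 0.29, -0.76 to -0.24, 0.24 to 0.47 and 0.059 to 0.40 in the same order. The median for the knockdown vector in trained mice turned negative without eGFP.250 (-0.061 by limma, -0.054 by edgeR) or KD.251 (-0.054 and -0.060), and for training with the knockdown vector without KD.251 by edgeR (-0.0062). Some of these fits passed members for training with the knockdown vector, the knockdown vector in untrained mice, the interaction and the averaged knockdown vector. None did for the other 3. The share of all genes called was not counted for most of these fits, so such calls are not read as results about the members. The limma calls came without KD.253, for Cspg4 and Nkx6-2, on 0 and 5 reads in KD.255. No paired analysis was possible because the columns carry no replicate number of the labels. Depth limits KD.255, where 3 reads equal 46.7 normalized counts, above the mean of Cspg4 (40.7) and Nkx6-2 (36.6).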
